A study of Mus musculus with 6 samples.

Results

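The early B cell programme was followed in healing bone through 9 genes, Vpreb1, Vpreb3, Igll1, Rag1, Ebf1, Pou2af1, Cd79a, Cd79b and Blnk, of 18193 genes with a probe set of their own. They were read on the 14 probe sets whose only annotated symbol is 1 of these genes, out of 45037 probe sets tested, and each gene had at least 1. The arrays carried callus RNA from 3 Cyp24a1-null (-/-) samples and from 3 heterozygous (+/-) littermate samples, and no wild-type callus was compared. All were C57BL6J x 129SV mixed mice of 12 weeks whose tibia had been cut and held by a rod in the marrow cavity, and callus was collected on day 14. Cyp24a1 encodes the mitochondrial enzyme that inactivates vitamin D hormone. The labels do not say whether each sample is 1 mouse, so the spread between replicates may be partly technical. Both probe sets of Cyp24a1 gave low signals, with 1 array each above 3.52 log2 units, the top of the background range described below. Probe set 1418866_at was at 3.65, 3.20 and 3.23 in null callus, against 2.71, 2.89 and 3.10 in heterozygous callus, higher in null callus without overlap (adjusted p = 0.999 by limma), and 1418867_at ran between 3.12 and 3.69 with overlap. Their place relative to the disrupted exons is not known here, which leaves the genotypes unchecked. The bone collagen gene Col1a1 (13.57 to 14.28) and the bone matrix gene Ibsp (9.46 to 10.44) were high on all arrays. Ibsp was lower in null callus without overlap (difference -0.56, SE 0.16). The cartilage collagen gene Col2a1 was at 8.16, 7.04 and 9.28 in null callus, against 9.76, 8.92 and 9.13 in heterozygous callus. Col10a1, of hypertrophic cartilage, was at 3.11, 4.44 and 7.71 in null callus, against 7.79, 6.74 and 7.35 in heterozygous callus, so that cartilage transcripts were unevenly present. These tissue genes had an adjusted p of 0.999 each by limma, and the part of tissue makeup in the members' values was not tested.

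B cells arise in the bone marrow, where Ebf1 and its partners switch a lymphoid progenitor into the B lineage and the recombinase Rag1 joins the segments of the immunoglobulin genes. A heavy chain that has been joined first pairs with the surrogate light chain, built from the products of Vpreb1 and Igll1, and signals through Cd79a and Cd79b to the adaptor Blnk. Surrogate light chain and recombinase genes are shut off in mature B cells, while Cd79a, Cd79b, Blnk and Pou2af1 stay on. Ebf1 is also made by adipocyte precursors and other stromal cells, and Blnk by macrophages. In a bulk sample, fewer cells of a type and less RNA per cell cannot be told apart.

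Promoter sequence is shown for Cd79a and Pou2af1, which varied together across the arrays, and for Vpreb3 and Blnk, which hold the octamer bound by the factors that Pou2af1 assists. Each is the run of 160 bases just upstream of the RefSeq start site on GRCm38.p6, 5′ to 3′ on the gene's strand, and capitals mark an octamer (ATGCAAAT) or an E box (CAGNTG) on either strand:
Cd79a (chr7:24897337-24897496, plus strand): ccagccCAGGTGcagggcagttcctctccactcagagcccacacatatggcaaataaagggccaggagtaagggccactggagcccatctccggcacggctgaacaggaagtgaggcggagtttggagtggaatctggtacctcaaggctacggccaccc
Pou2af1 (chr9:51213530-51213689, plus strand): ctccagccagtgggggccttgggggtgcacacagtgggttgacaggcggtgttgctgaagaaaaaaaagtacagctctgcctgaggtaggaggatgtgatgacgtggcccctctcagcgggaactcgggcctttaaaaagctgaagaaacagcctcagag
Vpreb3 (chr10:75948140-75948299, plus strand): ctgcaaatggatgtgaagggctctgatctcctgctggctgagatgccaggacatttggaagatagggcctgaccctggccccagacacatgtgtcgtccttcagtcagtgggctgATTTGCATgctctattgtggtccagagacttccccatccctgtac
Blnk (chr19:40994222-40994381, minus strand): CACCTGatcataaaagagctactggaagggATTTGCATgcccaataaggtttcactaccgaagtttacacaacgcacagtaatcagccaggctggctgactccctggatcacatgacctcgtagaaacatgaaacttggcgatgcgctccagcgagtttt

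The 250 bases upstream of each start were searched on both strands, and 8 of the 9 genes matched a RefSeq window, Cd79b being the other. The octamer lay 45 to 38 bases upstream of the Vpreb3 start and 130 to 123 bases upstream of the Blnk start, and 1.60% of all 32851 promoter windows hold it. The E box, the motif of the E2A proteins, was present upstream of Cd79a, Vpreb1, Vpreb3, Igll1, Rag1 and Blnk, and 44.8% of all windows hold it. The palindromic core of the Ebf1 motif, CCCNNGGG, was found upstream of Igll1 only among these members and in 11.8% of all windows. These matches describe the letters and are not evidence of binding.

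The genes that mark B cell precursors gave low and nearly flat signals on every array. A guide to background came from transcripts of the sex chromosomes (Xist and Y-linked genes) where an array lacked them, with log2 signals from 1.77 to 3.52. These are other probe sets than the members', so the guide is approximate. How the sex chromosome transcripts fell between the groups is not reported here, and the part of sex in the differences was not tested. Vpreb1 (1449869_at), the variable-like part of the surrogate light chain, was at 2.71, 2.97 and 2.89 log2 units in null callus, against 2.91, 2.95 and 2.85 in heterozygous callus. Every value lay inside the background range, and the groups overlapped. Rag1 (1450680_at) was at 2.45, 2.60 and 2.72 in null callus, against 2.67, 2.71 and 2.32 in heterozygous callus, also inside that range. Igll1, the constant-like part of the surrogate light chain and the neighbour of Vpreb1 on chromosome 16, had 2 probe sets. Its probe set 1420177_at stayed between 2.75 and 3.31 on all arrays, and 1420176_x_at was at 4.36, 4.18 and 4.06 in null callus, against 4.29, 4.44 and 4.45 in heterozygous callus. The groups overlapped on both. Vpreb3 (1422921_at), whose product joins the assembling pre-B cell receptor inside the cell, was at 4.26, 4.54 and 4.31 in null callus, against 4.29, 4.46 and 4.32 in heterozygous callus. The signals of Vpreb3 and of 1420176_x_at lay above the background guide but spanned only 0.27 and 0.38 over all 6 arrays. Vpreb1, Rag1 and Igll1 on 1420177_at thus gave no signal beyond the background guide, while Vpreb3 and 1420176_x_at gave low, flat signals above it. Whether B cell precursors were present cannot be read from these values, since a flat signal does not show that a transcript is absent. The signals that varied more came from the other members.

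The null minus heterozygous differences of these precursor genes were small. They were -0.05 (95% interval -0.31 to 0.21) for Vpreb1, 0.01 (-0.27 to 0.30) for Vpreb3, -0.19 (-0.47 to 0.10) for Igll1 on 1420176_x_at and 0.02 (-0.32 to 0.37) for Rag1, all in log2 units from limma. For Vpreb1 and Rag1, with both groups inside the background range, no fold is given. The intervals are those of the measured signal and say nothing of transcripts under background.

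**Figure D1:**
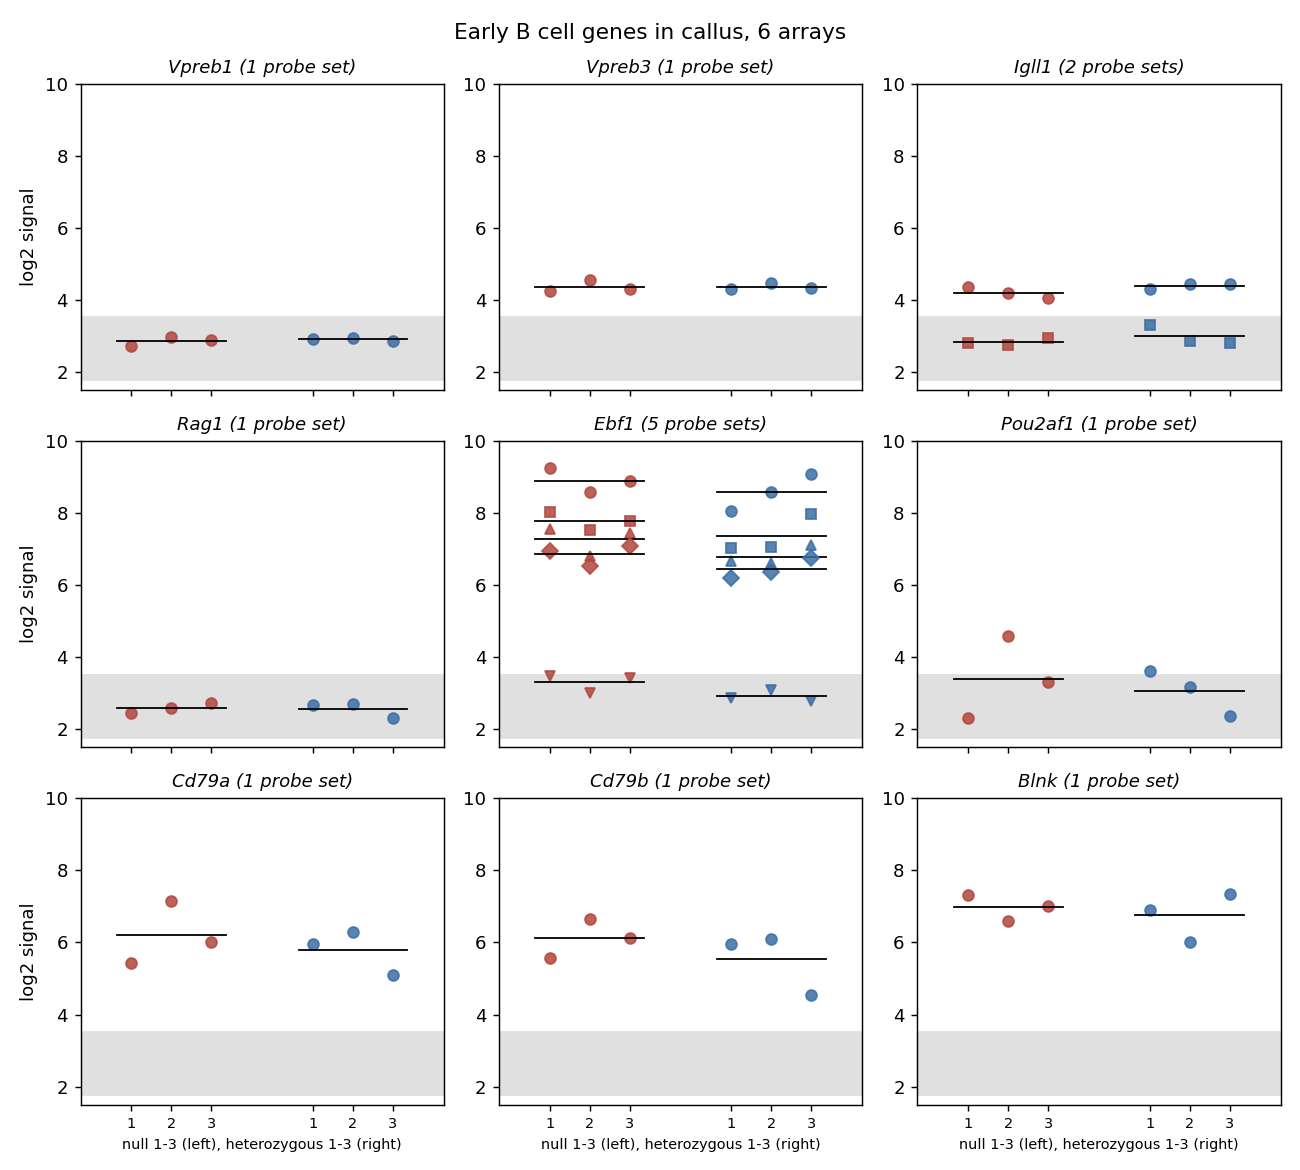
Log2 signal of each member on the 6 arrays, with null replicates 1 to 3 on the left of each panel in red and heterozygous replicates 1 to 3 on the right in blue. Each marker shape is 1 probe set, black lines are group means (n = 3), and the grey band is the background range of 1.77 to 3.52. Vpreb1 and Rag1 lie in the band on all arrays, while Cd79a, Cd79b, Ebf1 on 4 of its 5 probe sets and Blnk lie above it.

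The signal chains of the antigen receptor were measured above background on all arrays and had their highest value in a null sample. Cd79a (1418830_at), which encodes Ig-alpha, was at 5.43, 7.16 and 6.00 in null callus, against 5.96, 6.28 and 5.10 in heterozygous callus. Null replicate 2 was highest and heterozygous replicate 3 lowest. The groups overlapped, as null replicate 1 lay below heterozygous replicates 1 and 2. Cd79a averaged 6.20 ± 0.88 in null and 5.78 ± 0.61 in heterozygous callus (SD, n = 3 each), a difference of 0.42 (SE 0.49), or a 1.33-fold higher mean signal in null callus, with a 95% interval of -0.77 to 1.60. Cd79b (1417640_at), which encodes the partner chain Ig-beta, was at 5.58, 6.64 and 6.12 in null callus, against 5.95, 6.10 and 4.53 in heterozygous callus. Here too null replicate 2 was highest and heterozygous replicate 3 lowest. The means were 6.11 ± 0.53 in null and 5.53 ± 0.87 in heterozygous callus (SD, n = 3 each), a difference of 0.58 (SE 0.47) with an interval of -0.55 to 1.71. Pou2af1 (1416957_at), the B cell co-activator also known as OCA-B, was at 2.31, 4.58 and 3.30 in null callus, against 3.61, 3.17 and 2.37 in heterozygous callus. Only null replicate 2 and heterozygous replicate 1 exceeded 3.52, and the difference was 0.34 (SE 0.60).

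For Cd79a and Pou2af1 1 array could turn the direction, and for all 3 genes 1 array moved the size. Without null replicate 2 the difference turned to -0.07 for Cd79a and to -0.25 for Pou2af1. Without heterozygous replicate 3 it was 0.08 for Cd79a and 0.0010 for Pou2af1, and without null replicate 1 it was 0.80 and 0.89. Cd79b stayed higher in null callus with each array left out, between 0.08 without heterozygous replicate 3 and 0.87 without heterozygous replicate 2, and was 0.32 without null replicate 2 and 0.85 without null replicate 1.

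Ebf1, the transcription factor that commits cells to the B lineage, had a higher mean signal in null callus on all 5 of its probe sets, but the groups overlapped on each. Probe set 1416301_a_at was at 9.26, 8.57 and 8.89 in null callus, against 8.05, 8.59 and 9.07 in heterozygous callus. On this probe set the high arrays were null replicate 1 and heterozygous replicate 3, the same arrays on which Cd79a was lowest. The difference was 0.33 (SE 0.29, 95% interval -0.37 to 1.03), and with single arrays left out it ran between 0.07 (without heterozygous replicate 1) and 0.58 (without heterozygous replicate 3). It was 0.16 without null replicate 1 and 0.50 without null replicate 2. Probe set 1448293_at was at 7.57, 6.81 and 7.46 in null callus, against 6.66, 6.60 and 7.11 in heterozygous callus, a difference of 0.49 (SE 0.24). Of the other Ebf1 probe sets, 1416302_at differed by 0.44 (SE 0.28), 1439789_at by 0.42 (SE 0.21) and 1457441_at, whose values all lay under 3.52, by 0.38 (SE 0.17). Null replicate 1 and heterozygous replicate 3 were also the highest arrays on 1416302_at, but not on the rest. Null replicate 3 exceeded heterozygous replicate 3 on 1448293_at (7.46 against 7.11) and on 1439789_at (7.09 against 6.76). On 1457441_at heterozygous replicate 3 was the lowest array (2.78). The Ebf1 probe sets read 1 gene in the same samples and are not independent of each other.

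Blnk (1451780_at), the adaptor that links the receptor kinase Syk to downstream signalling, was at 7.31, 6.60 and 7.02 in null callus, against 6.90, 6.01 and 7.34 in heterozygous callus. Its high arrays were null replicate 1 and heterozygous replicate 3, as on Ebf1 1416301_a_at. The means of 6.98 ± 0.36 in null and 6.75 ± 0.68 in heterozygous callus (SD, n = 3 each) differed by 0.23 (SE 0.36), and by -0.14 without heterozygous replicate 2.

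Across the 14 probe sets, 11 had a higher and 3 a lower mean in null callus, and none passed limma's test after Benjamini-Hochberg adjustment over all probe sets (adjusted p = 0.999 for each). Among all probe sets 0 passed at an adjusted p under 0.05, which is 0%, and the lowest adjusted p was 0.775. At an unadjusted p under 0.05 there were 0 of the 14, where 3.69% of all probe sets (1660) were counted. The lowest unadjusted p among the members was 0.0571, on Ebf1 1457441_at by limma. The groups overlapped on all 14, where 8.95% of all probe sets had no overlap. With 1 probe set per gene, 0 of 9 members lacked overlap, against 10.1% of 18193 genes. The median difference of the 9 genes was 0.23, beside 0.00 for all genes, and leaving out null replicate 2 gave -0.07 and leaving out heterozygous replicate 3 gave 0.00. The exact permutation p of the members (two-sided) ran from 0.2 to 0.9, where 0.1 is the lowest that 3 against 3 arrays can give.

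**Figure D2:**
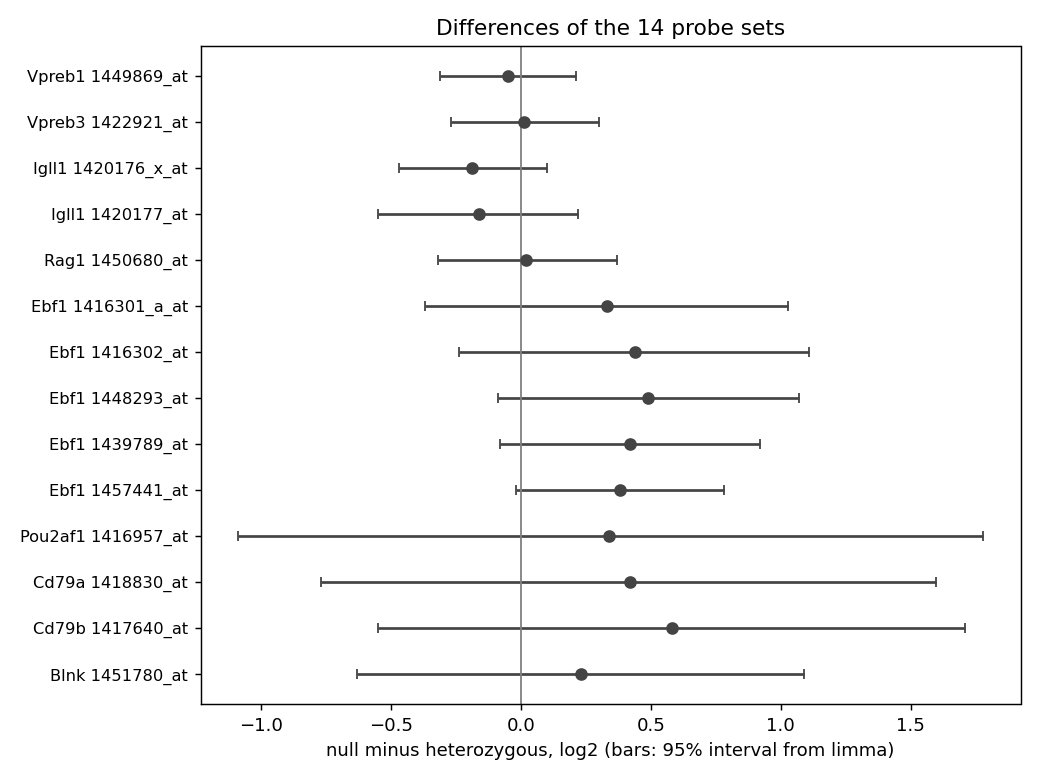
Null minus heterozygous difference in log2 signal for the 14 probe sets, with 95% intervals from limma as bars (3 arrays per group). All intervals include 0, and those of Pou2af1, Cd79a and Cd79b are the widest.

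The varying members were set beside transcripts of marrow cells, and the part of marrow content in their values was not tested. Neutrophil genes, centred on each gene's mean over the arrays, had list means of -2.82, 1.86 and 1.25 in null callus, against 1.46, 1.45 and -3.20 in heterozygous callus (13 of 15 sought genes measured). The erythroid genes gave -2.52, 1.46 and 0.65 in null callus, against 1.26, 1.29 and -2.14 in heterozygous callus (14 of 16 measured). Null replicate 1 and heterozygous replicate 3 were thus the arrays poor in marrow transcripts, 1 in each group. Both were also the lowest arrays for 5 of the 9 members (55.6%), Cd79a, Cd79b, Pou2af1, Vpreb1 and Rag1, against 16.5% of all genes. For Vpreb1 and Rag1 this ordering lay within the background range. Pou2af1 was in that range on both arrays (2.31 and 2.37), and also on null replicate 3 (3.30) and heterozygous replicate 2 (3.17). Both were the highest arrays for Blnk and for Ebf1 on 1416301_a_at, 22.2% of the 9 members against 16.4% of all genes. For Ebf1 this order did not hold on 1448293_at, 1439789_at and 1457441_at. On the 4 other arrays Cd79a still spanned 1.20 and Pou2af1 1.41 log2 units. With both marrow-poor arrays left out, the difference was 0.46 for Cd79a, 0.35 for Cd79b, 0.54 for Pou2af1, 0.41 for Ebf1 and 0.36 for Blnk, and none passed limma's test (lowest adjusted p = 0.688 for Ebf1 among these 5).

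Other genes of the B lineage gave the setting for Cd79a, Cd79b and Pou2af1. Of the 16 measured mature B cell genes, 13 had higher and 3 lower means in null callus, with a median difference of 0.23 and 0 past the adjusted test in either direction. The list means were -0.21, 0.46 and 0.10 in null callus, against -0.02, -0.15 and -0.19 in heterozygous callus, so null replicate 2 was highest here as well. The CD20 gene Ms4a1 and the antibody joining chain gene Jchain were singled out after their values were seen. Ms4a1 was at 2.48, 5.47 and 4.32 in null callus, against 4.69, 4.28 and 3.23 in heterozygous callus. Jchain was at 4.41, 9.95 and 7.28 in null callus, against 9.08, 8.72 and 6.56 in heterozygous callus. Both were highest on null replicate 2 and lowest on null replicate 1, but their lists did not all follow them. Both marrow-poor arrays were the lowest for 6 of the 16 mature B cell genes and the highest for 2, Ly86 and Cd180, which macrophages also express. Of the plasma cell genes, 2 of 10 were lowest there and 2, Sdc1 and Fkbp11, highest. Among the 10 plasma cell genes 5 had higher and 5 lower means in null callus (median -0.05, 0 past the test). Tnfrsf13b, the receptor TACI of B and plasma cells, differed by 0.63 (SE 0.17) without overlap, at an adjusted p of 0.999 by limma.

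Genes most like the varying members were taken as those with the smallest mean absolute difference from the member's profile over the 6 arrays, after each was centred on its own mean. For Cd79a these were Spib (0.12), a B cell and dendritic cell transcription factor, Phyhip (0.13) and the sialic acid receptor gene Siglece (0.13). For Pou2af1 they were Bank1 (0.16), a scaffold of B cell receptor signalling, Abca13 (0.18) and Spib (0.19). For Cd79b they were the ficolin gene Fcna (0.10), the leukotriene enzyme gene Alox5 (0.11) and Parvg (0.11). Between members, the profile distance was 0.26 for Cd79a with Cd79b, 0.23 for Cd79a with Pou2af1 and 0.29 for Ebf1 with Blnk. It was 0.81 for Cd79a with Ebf1 and 0.86 for Cd79a with Blnk. The distance is in log2 units and depends on spread, so genes with flat signals lie near each other. Vpreb1 was 0.06 from Vpreb3. The flat Igll1 was 0.34 from Ebf1 and 0.38 from Blnk, so the 0.29 does not by itself show a shared profile. That value also rests on the Ebf1 probe set of highest mean alone. These distances are descriptions over 6 arrays that share the same samples.

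**Figure D3:**
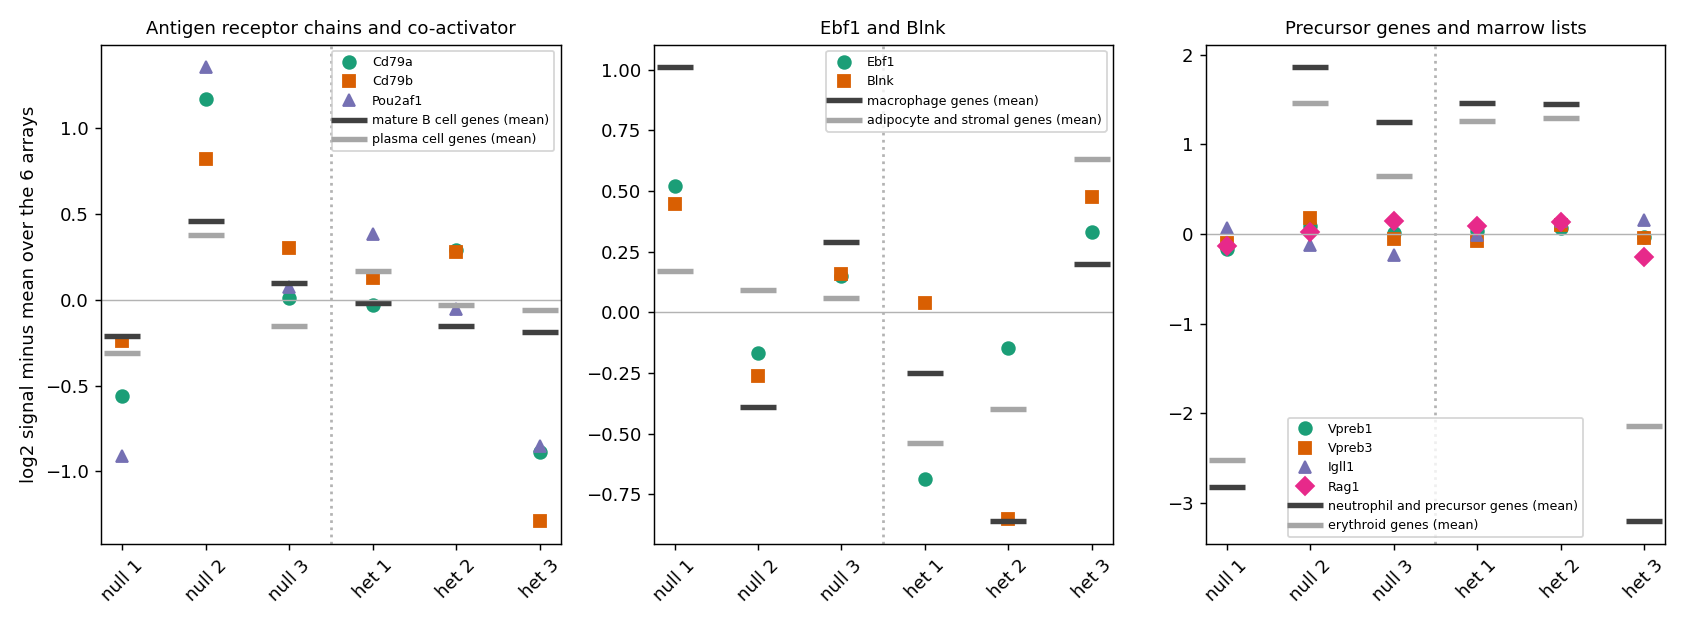
Log2 signal minus the gene's mean over the 6 arrays, with null 1 to 3 left of the dotted line and heterozygous (het) 1 to 3 right of it, and vertical scales that differ between panels. Coloured markers are members (1 probe set per gene) and grey bars are means of gene lists. Cd79a, Cd79b and Pou2af1 are lowest on null 1 and het 3, Ebf1 and Blnk are highest there, and Vpreb1, Vpreb3, Igll1 and Rag1 stay near 0 while neutrophil and erythroid means span from -3.20 to 1.86.

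Marker lists of other cells that make Ebf1 or Blnk were set beside them. All 12 measured macrophage genes had higher means in null callus (median 0.55, 0 past the adjusted test), with list means of 1.01, -0.39 and 0.29 in null callus, against -0.25, -0.86 and 0.20 in heterozygous callus. The macrophage list was highest on null replicate 1 and lowest on heterozygous replicate 2, and Blnk was lowest on that last array too. Blnk was highest on heterozygous replicate 3 (7.34), where the macrophage list mean was 0.20, and was at 7.31 on null replicate 1. The adipocyte and stromal list (10 measured, 8 with higher means in null callus, median 0.21, 0 past the test) had means of 0.17, 0.09 and 0.06 in null callus, against -0.54, -0.40 and 0.63 in heterozygous callus. Ebf2, a paralogue of Ebf1 that is active in adipocyte precursors, was at 6.57, 6.29 and 6.31 in null callus, against 5.97, 5.70 and 6.28 in heterozygous callus, without overlap, a difference of 0.41 (SE 0.17). Both marrow-poor arrays were the highest for 8 of the 12 macrophage genes and for 3 of the 10 adipocyte and stromal genes. The part of these cells in the signals of Ebf1 and Blnk was not tested. Plasmacytoid dendritic cell genes (6 measured, 1 higher, median -0.10, 0 past the test) had list means between -0.14 and 0.09 on all arrays. Their levels were unlike, with Ccr9 inside the background range on all arrays and Cox6a2 at a mean of 12.3. Whether this list reads those cells in callus was not tested. T cell precursors also use Rag1, and the T cell list had 4 of 14 genes with higher means in null callus (median -0.09, 0 past the test).

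The rest of the pathway gave no gene past the adjusted test in either direction, and the adjusted p was 0.999 for the lowest gene of each list. Of 18 measured genes of pre-B and B cell receptor signalling, 16 had higher means in null callus and 2 lower (median 0.24). Syk, the kinase that acts on Blnk, was at 7.27, 7.38 and 7.50 in null callus, against 7.14, 6.98 and 6.65 in heterozygous callus, without overlap, a difference of 0.46 (SE 0.15). Of 20 B lineage transcription factors 12 had higher and 8 lower means (median 0.04), and Pax5, which holds cells in the B lineage, stayed between 2.95 and 3.45 on all arrays, inside the background range. Of 12 recombination and end joining genes 3 had higher and 9 lower means (median -0.11). Among them Xrcc5, which encodes the Ku80 end-binding protein, was at 6.60, 6.22 and 6.43 in null callus, against 6.75, 6.71 and 6.72 in heterozygous callus, a difference of -0.31 (SE 0.12).

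All 13 measured surface genes of lymphoid progenitors and pro-B cells had higher means in null callus (median 0.31, 0 past the test), where 9033 of all 18193 genes did. Several of these genes, such as Ptprc, Cd34 and Cd93, are also expressed by other blood or vessel cells, and the 12 macrophage genes above had higher means in null callus too. Bst1, the surface enzyme CD157 of pro-B, stromal and myeloid cells, was at 4.14, 4.12 and 4.29 in null callus, against 3.62, 3.15 and 3.26 in heterozygous callus. The heterozygous values of replicates 2 and 3 lay in the background range, so the size of the difference is uncertain. The groups did not overlap, and the measured difference of 0.84 (SE 0.15) had an unadjusted p of 0.00102 and an adjusted p of 0.999 by limma. Ly6d, a surface protein of B-committed lymphoid progenitors and of keratinocytes, differed by 0.74 (SE 0.29) with overlapping groups. Of the 10 niche factors 9 had higher means in null callus (median 0.16, 0 past the test), and the chemokine gene Cxcl12, which retains B cell precursors in marrow, was at 11.11, 10.74 and 10.86 in null callus, against 10.47, 9.98 and 10.54 in heterozygous callus. These groups did not overlap, and the difference was 0.57 (SE 0.19).

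**Figure D4:**
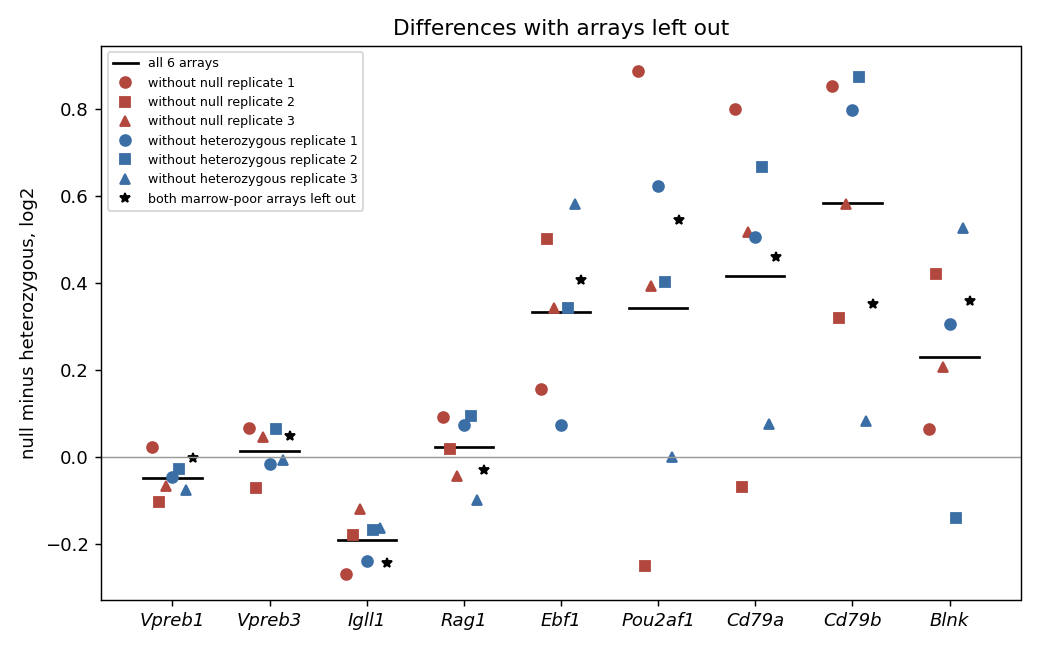
Null minus heterozygous difference in log2 signal of each member (1 probe set per gene) with all 6 arrays (black line), with 1 array left out (red for a null array, blue for a heterozygous array) and with both marrow-poor arrays left out (star). Pou2af1 spans -0.25 to 0.89 and Cd79a -0.07 to 0.80, while Igll1 stays below 0 in each setting drawn.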

How the data were processed

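Total RNA of callus was hybridised to Affymetrix Mouse 430_2 arrays, per the labels' protocols. The values deposited by the authors, 1 per probe set and array, were taken as log2 signals from their range of 1.65 to 14.49. The sources used here do not state how they were background-corrected, summarised and normalised, and a shift common to all genes may have been removed. Array medians ran from 4.55 to 4.59, and r between arrays across probe sets from 0.970 to 0.991. Precision is limited by there being 3 arrays per group.

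After 64 control probe sets were left out, 45037 probe sets were tested with lmFit and eBayes of limma 3.58.1 (R 4.3.3, two-sided, Benjamini-Hochberg over all, threshold 0.05), in 3 null and 3 heterozygous arrays without covariates. The script was tested on simulated data. Symbols came from the platform annotation (34945 probe sets with 1 symbol, 932 with several, 9160 with none), and 1 probe set annotated to both a member and another gene was left out. Each gene was represented by its probe set of highest mean. Promoters came from RefSeq (GRCm38.p6). From each of the 13 gene lists (168 of 188 genes measured), up to 3 genes of lowest p could be named, and like profiles were sought for members spanning at least 2 log2 units. Replicate numbers follow accession order and pair no samples. Members and lists were chosen with earlier results of these data known. Alternatives were other normalisations, a level filter, a trended robust prior, array weights, a marrow score as covariate, other probe sets, a plain test with equal variances, and arrays left out.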

Additional observations from a re-analysis of the deposited data

How the results depend on the processing

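Over the alternatives tried, 110 of 121 values of single members kept their direction and 0 passed the adjusted threshold (lowest adjusted p = 0.508, Ebf1 with array weights). Cd79b, Ebf1 and Igll1 kept their direction in all of theirs. Part of these counts was fixed in advance. The trended robust prior and the level filter do not alter a difference. The choice of other probe sets cannot alter it for members with only 1 probe set. With arrays left out in turn, the differences ran from -0.068 to 0.799 for Cd79a, from -0.25 to 0.886 for Pou2af1, from -0.14 to 0.525 for Blnk, from -0.102 to 0.024 for Vpreb1, from -0.07 to 0.067 for Vpreb3 and from -0.099 to 0.095 for Rag1. Rag1 was at -0.03 with both marrow-poor arrays left out, and Vpreb3 at -0.0024 with arrays centred on their medians. The cause of these turns was not tested. Cd79b ran from 0.083 to 0.873 and was 0.595 with the marrow score as covariate (unadjusted p = 0.0124, adjusted p = 0.626 by limma).

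The median difference of the members, 0.23, was 0.37 among probe sets above the median level, where fewer members were left, and 0.35 with both marrow-poor arrays left out, and ran from -0.07 to 0.21 with single arrays left out. The number of members without overlap was 2 (Igll1 and Cd79b) with both marrow-poor arrays left out, where 39.4% of all probe sets had none, and ran from 0 to 2 with single arrays left out (15.5% to 24.0% of all probe sets). The number of probe sets passing was 1, without a symbol, when the marrow score (mean of the neutrophil and erythroid lists) was a covariate, and 0 otherwise; the number at an unadjusted p under 0.05 ran from 746 above the median level, where fewer were tested, to 4631 with array weights, against 1660, and was 1942 by the plain test. The overlap count was not run with the marrow score.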
